A study of Mus musculus with 25 samples.

Results

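Interleukin-12 p40, the product of Il12b, was the subject of the comparison described here: colon RNA of mice that lack NEMO in their intestinal epithelium and are labelled Il12b-/-, against colon RNA of mice with the same epithelial deletion only. These were 10 of the 25 samples of the study, 5 mice for each of the 5 genotypes, and members were taken by genotype label alone, with no measured value. All mice were on the C57BL/6 background and 6 weeks old, and poly(A)-selected RNA of the distal colon was sequenced. The 5 NEMOIEC-KO mice lack NEMO, encoded by Ikbkg, in intestinal epithelial cells. NEMO is the scaffold through which the IκB kinases are switched on to activate NF-κB. The 5 mice labelled NEMOIEC-KO Il12b-/- carry the same epithelial deletion and are called Il12b-labelled below. Nemofl/fl mice, whose epithelium keeps NEMO, and NEMOIEC-KO mice labelled Il12a-/- or Il23a-/- were used as reference points, 5 mice each. The driver of the epithelial deletion and the design of the Il12b allele were not given in the sources used here.

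IL-12 is a dimer of p40 and p35 (Il12a), and IL-23 is a dimer of p40 and p19 (Il23a). Loss of p40 therefore removes both cytokines. IL-12 drives T and natural killer cells toward production of interferon-γ, which acts through JAK kinases and STAT proteins to induce guanylate-binding proteins, immunity-related GTPases, antigen presentation genes and the chemokines of the CXCR3 receptor. IL-23 acts through STAT3 on lymphocytes that make IL-17 and IL-22, cytokines that induce antimicrobial genes in the gut epithelium.

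Interferon-induced genes were lower in Il12b-labelled mice than in NEMOIEC-KO mice in nearly every list examined, and genes of epithelial xenobiotic, ketone and fatty acid metabolism were higher. Of 19266 genes tested with limma on log2(FPKM + 0.5), 3833 passed an adjusted p of 0.05, of which 2689 were higher and 1144 lower than in NEMOIEC-KO mice. These are 14.0% and 5.94% of the genes tested. Changes of at least 2-fold were the reverse in number, with 246 genes higher and 348 lower. The median log2 fold change over all genes was 0.11, and median-of-ratios scaling, which brought that median to 0.004, lowered the share of called genes that were higher from 70.2% to 42.8%. Changes below are to be read against the median of 0.11. Tissue from whole colon holds many cell types, so fewer cells of a type and less RNA per cell cannot be told apart in any of the values below.

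Promoters of 3 interferon-induced genes are printed here because their RNAs were among those that fell most, and they show how different the sequence upstream of such genes can be. Each window runs from 250 bases before to 50 bases after the start site and is taken from RefSeq on GRCm38.p6. Capitals mark matches to the γ-activated site (GAS) of interferon-γ signalling, TTCNNNGAA, or to the core of the interferon-stimulated response element (ISRE), TTTCNNTTT, searched on both strands. The windows are chr17:37193642-37193941 on the plus strand for Ubd, chr11:48992197-48992496 on the minus strand for Tgtp1 and chr5:92328030-92328329 on the minus strand for Cxcl9.
Ubd: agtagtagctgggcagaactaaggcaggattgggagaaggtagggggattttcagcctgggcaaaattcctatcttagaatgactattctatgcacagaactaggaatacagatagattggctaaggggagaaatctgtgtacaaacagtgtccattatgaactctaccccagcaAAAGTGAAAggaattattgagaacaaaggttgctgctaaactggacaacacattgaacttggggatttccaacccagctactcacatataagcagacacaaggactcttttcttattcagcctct
Tgtp1: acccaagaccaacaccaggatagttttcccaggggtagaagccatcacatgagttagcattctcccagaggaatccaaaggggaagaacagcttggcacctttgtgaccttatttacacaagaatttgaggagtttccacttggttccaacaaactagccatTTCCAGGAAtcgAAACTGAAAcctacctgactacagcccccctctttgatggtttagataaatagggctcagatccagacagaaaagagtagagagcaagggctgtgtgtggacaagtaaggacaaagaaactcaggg
Cxcl9: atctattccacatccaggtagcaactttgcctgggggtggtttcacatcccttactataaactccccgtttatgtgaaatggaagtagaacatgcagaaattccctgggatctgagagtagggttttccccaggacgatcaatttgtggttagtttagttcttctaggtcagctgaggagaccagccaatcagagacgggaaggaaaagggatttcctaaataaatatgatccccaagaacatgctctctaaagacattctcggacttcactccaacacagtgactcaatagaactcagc
In Ubd an ISRE core started 75 bases before the start site, in reverse orientation. In Tgtp1 a GAS at 88 bases and a reversed ISRE core at 76 bases before the start site lay next to each other. Neither motif's letters occurred in the Cxcl9 window. Among all 32851 promoters of the table, 8.3% held a GAS and 10.6% an ISRE core. All 6 immunity-related GTPase genes with a promoter in the table held an ISRE core and 4 held a GAS. Of 5 guanylate-binding protein genes with a promoter, 5 held an ISRE core and 2 a GAS, while of 10 MHC class II genes 2 held an ISRE core and 1 a GAS. A match to these letters is a description of the window and not a measured binding site.

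The targeted genes were examined first. Ikbkg RNA averaged 9.08 ± 1.14 FPKM in Nemofl/fl mice (SD, n = 5, as for all means below). In NEMOIEC-KO mice it was 3.10, 5.85, 3.82, 3.29 and 4.33 FPKM in replicates 1 to 5, and in Il12b-labelled mice 3.81, 3.65, 3.76, 4.32 and 4.37 FPKM. The residual Ikbkg level was thus nearly the same in both groups of 5 (log2 fold change -0.00, SE 0.13, limma adjusted p 0.99), and the cells outside the epithelium keep the gene.

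Il12b RNA went against its label. It stood at 0.0419, 0.219, 0.212, 0.236 and 0.145 FPKM in the 5 NEMOIEC-KO mice and at 0.793, 0.790, 1.29, 0.946 and 1.15 FPKM in the 5 Il12b-labelled mice. The groups did not overlap, and the labelled mice were higher by 1.15 on the log2(FPKM + 0.5) scale (SE 0.10, limma adjusted p 1e-07). A value over the whole gene cannot show a partial deletion, and whether this RNA encodes p40 was not tested. The RNA of Il12a, the p35 subunit, likewise had its highest group mean, 1.2 ± 0.586 FPKM, in mice labelled Il12a-/-. Every direction below is drawn from the label. Within the Il12b-labelled group Il12a RNA was 0.187, 1.08, 0.241, 0.278 and 0.327 FPKM, against a NEMOIEC-KO mean of 0.421 ± 0.313 FPKM. Il23a RNA averaged 0.311 ± 0.308 FPKM in NEMOIEC-KO and 0.285 ± 0.0810 FPKM in Il12b-labelled mice, with overlapping groups (adjusted p 0.94). Among the 8 tested receptor and signalling genes of the IL-12 family, 3 fell and 0 rose. They were Il12rb1, the receptor chain that binds p40 (0.941 to 0.241 FPKM), the kinase Jak2 (18.6 to 13.6 FPKM) and Stat3 (62.9 to 40.4 FPKM, log2 fold change -0.63, adjusted p 0.00054). With the library code as a covariate or within code K002000079, described below, 1 of these passed: Il12rb1 (adjusted p 0.11 and 0.15) and Jak2 (0.12 and 0.2) lost their calls, and Jak2 also did with the smooth muscle level as a covariate (0.16) and without any of 5 single mice (0.054 to 0.073).

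**Figure D1:**
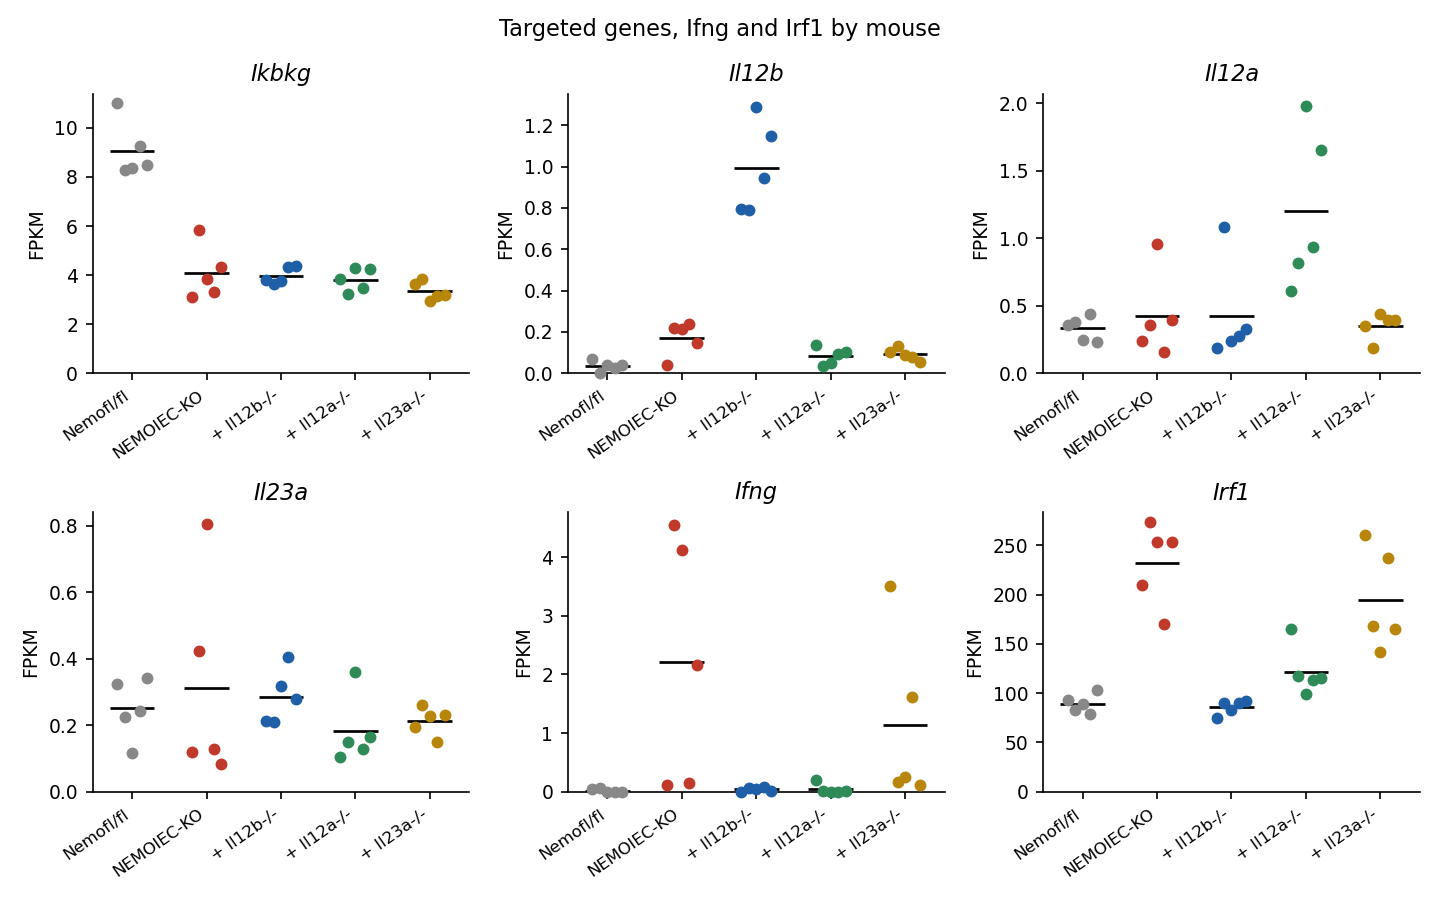
FPKM by mouse for Ikbkg, Il12b, Il12a, Il23a, Ifng and Irf1 in the 5 genotypes, with each point 1 mouse and each line the group mean. Mean Ikbkg is lower than in Nemofl/fl mice in all 4 NEMO-deleted groups, Il12b is highest in the mice labelled Il12b-/-, and Ifng is below 0.1 FPKM in all 5 of them.

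Several library facts bear on what follows. The deposited values summed to between 653776 and 744280 FPKM per library, and no read counts were used, so the depth behind each value is unknown. The submitters' library codes split the groups: all 5 Il12b-labelled libraries and NEMOIEC-KO replicates 1 and 2 carry the code K002000079, and NEMOIEC-KO replicates 3 to 5 carry K002000081. All 5 Nemofl/fl libraries carry K002000081 as well, so code and genotype cannot be told apart between them and the Il12b-labelled mice. With the code as a covariate 1420 genes passed, and 719 passed when only the libraries of code K002000079 were compared, 5 against 2. By sex-linked RNA, 1 of 5 NEMOIEC-KO and 2 of 5 Il12b-labelled mice were female. The mean log2(FPKM + 0.5) of smooth muscle markers was 4.79 to 6.28 in NEMOIEC-KO and 5.43 to 7.10 in Il12b-labelled libraries, which overlap, and 1 of 15 markers rose (Smpx). With that level as a covariate 1899 genes passed. The epithelial genes Epcam (1090 and 838 FPKM), Vil1 (302 and 225 FPKM) and Cdh17 (220 and 122 FPKM) were abundant in both groups, as colon tissue should show, and all 3 fell. Of 17 intestinal epithelial identity genes 6 fell and 1 rose, beside 5.94% of all genes called lower and 14.0% higher. The count of 6 held when any single mouse was left out, and 3 fell within code K002000079. The median of the list was 0.03, and its levels overlapped between the groups. Vil1 lost its call with the library code (limma adjusted p 0.077) or smooth muscle level (0.071) as a covariate and within code K002000079 (0.12). Epcam lost its call within that code (0.06). Replicate 2 of the Il12b-labelled group stood apart from the other 4, and its values are given where they matter.

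Ifng, which encodes interferon-γ, was at or near 0 in every Il12b-labelled mouse. It measured 0.114, 4.54, 4.12, 0.146 and 2.16 FPKM in NEMOIEC-KO mice and 0, 0.0605, 0.0428, 0.0848 and 0.0188 FPKM in Il12b-labelled mice. Every labelled mouse was below every NEMOIEC-KO mouse, but the NEMOIEC-KO mice were themselves divided, replicates 1 and 4 lying near the labelled ones. Ifng fell by 1.81 on the log2(FPKM + 0.5) scale (SE 0.51, limma adjusted p 0.017). The call was lost with the library code as a covariate (adjusted p 0.13), within code K002000079 (0.15), with the smooth muscle level as a covariate (0.11), with the 2 groups fitted alone (0.053) and without NEMOIEC-KO replicate 2 or 3 (0.058 each).

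Genes of type 1 and cytotoxic lymphocytes fell as a group: 13 of 16 tested were lower and 0 higher, with a median log2 fold change of -1.16 beside 0.11 for all genes and 5.94% of all genes called lower. Gzma, the protease granzyme A of cytotoxic granules, was 3.57, 7.74, 10.6, 4.93 and 2.72 FPKM in NEMOIEC-KO and 0.132, 0.562, 0.189, 0.780 and 0.249 FPKM in Il12b-labelled mice. It was at 2.72 FPKM or more in all 5 NEMOIEC-KO mice, and it fell by 2.77 (SE 0.41, limma adjusted p 0.00012). Gzmb fell from 2.18 ± 0.895 to 0.280 ± 0.213 FPKM, and the natural killer cell genes Nkg7 and Klrd1 fell by 1.41 and 1.23 on the log2 scale. Tbx21, the T-bet transcription factor of type 1 lymphocytes, fell from 0.483 ± 0.211 to 0.118 ± 0.0522 FPKM. Within code K002000079 5 of the 16 genes passed. Of 20 general T cell markers 8 fell, among them Cd3g (4.92 to 1.85 FPKM) and Trbc2 (11.1 to 5.34 FPKM). That count was 0 with the library code as a covariate or within code K002000079 and 1 with the smooth muscle level as a covariate. Leaving out single mice moved it from 2 (without NEMOIEC-KO replicate 3 or Il12b-labelled replicate 1) to 13 (without Il12b-labelled replicate 2). Of 14 regulatory T cell and checkpoint genes 7 fell, among them Foxp3 (0.543 to 0.223 FPKM), Ctla4 (1.99 to 0.475 FPKM) and Tnfrsf8, which encodes CD30. Tnfrsf8 had the steepest fall of these, from 13.1, 13.2, 14.9, 10.6 and 8.10 FPKM to 0.384, 0.428, 0.115, 0.114 and 0.515 FPKM. Of the 14 genes 1 passed with the library code as a covariate, 1 within code K002000079, 3 with the smooth muscle level as a covariate and 4 without NEMOIEC-KO replicate 3. Foxp3 (adjusted p 0.25) and Ctla4 (0.11) lost their calls with the code.

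Several transducers of the interferon signal fell as well. Irf1, an interferon-induced transcription factor, was 210, 274, 254, 170 and 254 FPKM in NEMOIEC-KO and 75, 90.4, 82.9, 90.5 and 91.6 FPKM in Il12b-labelled mice, around its Nemofl/fl mean of 89.4 FPKM. The groups did not overlap, and the fall was 1.41 (SE 0.16, limma adjusted p 4.5e-06). The feedback inhibitors Socs1 and Socs3 fell by 2.28 and 2.78. Altogether 9 of 17 receptors and transducers fell and 0 rose, and 5 fell within code K002000079. Neither receptor chain of interferon-γ passed: Ifngr1 was 192 ± 26.9 and 170 ± 37.5 FPKM, and Ifngr2 64.2 ± 10.1 and 60.1 ± 6.89 FPKM.

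Induced chemokines and enzymes of the interferon-γ response all fell, 13 of 13, with a median of -2.06. Ido1, which starts the breakdown of tryptophan along the kynurenine pathway, measured 65.8, 331, 623, 86.9 and 118 FPKM in NEMOIEC-KO and 0.699, 2.03, 1.29, 2.96 and 2.70 FPKM in Il12b-labelled mice. The lowest NEMOIEC-KO value was more than 20-fold above the highest labelled value, and the labelled mean of 1.94 ± 0.946 FPKM lay beside a Nemofl/fl mean of 2.30 FPKM. Ido1 fell by 6.23 (SE 0.80, limma adjusted p 2.1e-05). Ubd, a ubiquitin-like modifier that carries proteins to the proteasome, was 65.4, 201, 285, 127 and 86.0 FPKM against 0.490, 6.74, 1.87, 3.04 and 1.80 FPKM. It fell by 5.63 (SE 0.60, adjusted p 3.3e-06), with labelled replicate 2 the highest of its group. Its promoter is the first of those printed above. Nos2, the inducible nitric oxide synthase, was 17.4, 43.9, 69.9, 9.41 and 37.0 FPKM in NEMOIEC-KO mice. In the labelled mice it lay between 0.279 and 0.434 FPKM, and it fell by 5.11 (SE 0.73, adjusted p 6.8e-05). Cxcl9, a ligand of CXCR3, was 2.19, 25.1, 29.7, 3.74 and 10.6 FPKM against 0.213, 1.43, 0.195, 0.571 and 0.136 FPKM. As for Ifng, NEMOIEC-KO replicates 1 and 4 were the lowest of their group. Cxcl9 fell by 3.44 (adjusted p 0.0013), a call lost within code K002000079 (-3.18, adjusted p 0.072). Cxcl10 fell from 16.0 ± 11.6 to 1.68 ± 1.14 FPKM and Cd274, which encodes the checkpoint ligand PD-L1, from 12.7 ± 6.81 to 2.40 ± 0.763 FPKM. Of the 13 genes, 5 passed within code K002000079 and 9 with the smooth muscle level as a covariate.

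**Figure D2:**
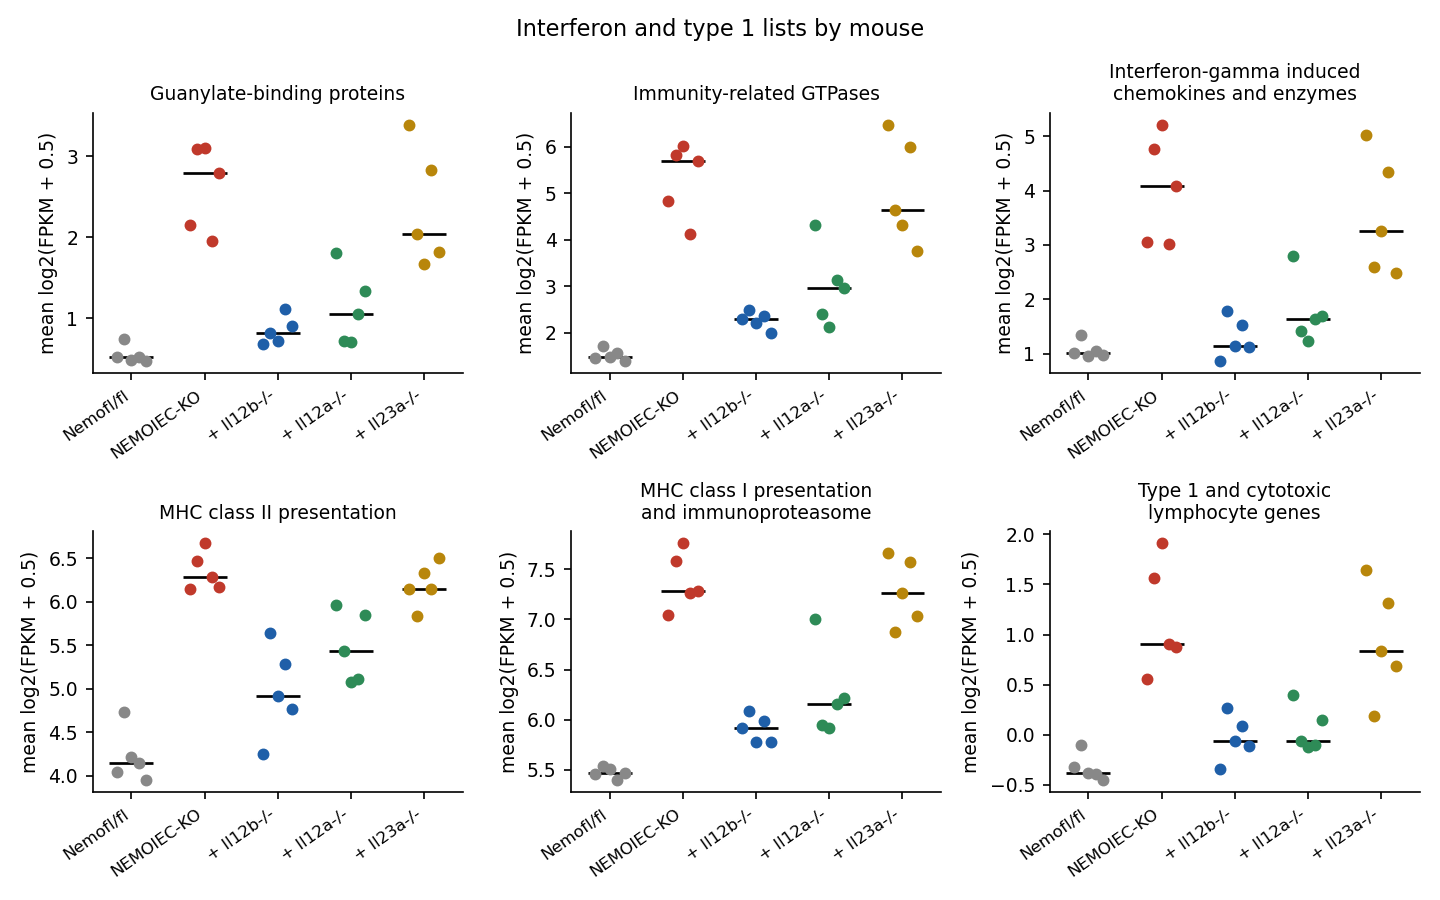
Level of 6 interferon-related gene lists by mouse in the 5 genotypes, each point the mean log2(FPKM + 0.5) over list members in 1 mouse and each line the group median. For guanylate-binding proteins the NEMOIEC-KO mice lie between 1.95 and 3.11 and the Il12b-labelled mice between 0.68 and 1.12.

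Cell-autonomous defence GTPases showed the largest shift of any list by median. All 7 immunity-related GTPases, proteins that attack the vacuoles of intracellular microbes, fell, with a median log2 fold change of -3.17. Tgtp1 was 7.31, 19.4, 20.5, 2.88 and 15.1 FPKM in NEMOIEC-KO and 0.158, 0.514, 0.488, 0.348 and 0.179 FPKM in Il12b-labelled mice, a fall of 3.76 (SE 0.60, limma adjusted p 0.00021). Tgtp1 and Tgtp2 are close copies, and the split of reads between them is uncertain. Tgtp1 also lies within 5 Mb of Il12b, and whether sequence linked to that locus plays a part was not tested. Iigp1 fell from 46.3 ± 23.8 to 1.97 ± 0.177 FPKM and Ifi47 from 77.5 ± 26.3 to 7.97 ± 2.55 FPKM. Of 11 guanylate-binding proteins 10 fell and 0 rose, with a median of -2.10. Gbp2 was 153, 257, 286, 88.8 and 232 FPKM against 19.8, 13.8, 20.6, 26.0 and 18.6 FPKM, so the groups were far apart and the labelled mice close to the Nemofl/fl mean of 15.9 FPKM. Gbp2b was the member that did not pass, at 0.723 ± 0.201 and 0.665 ± 0.378 FPKM. These are multigene families, and reads shared between copies could move values among members. Within code K002000079 all 7 immunity-related GTPases and 7 guanylate-binding proteins passed as well.

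Antigen presentation fell on both arms. Cd74, the invariant chain that escorts MHC class II, was 2814, 3587, 4144, 3925 and 2910 FPKM in NEMOIEC-KO and 267, 685, 386, 481 and 376 FPKM in Il12b-labelled mice. The groups did not overlap, labelled replicate 2 was the highest of its group, and the Nemofl/fl mean was 224 FPKM. Cd74 fell by 3.04 (SE 0.26, limma adjusted p 2e-07). Ciita, the master transactivator of class II genes, was 9.08, 16.1, 20.4, 11.7 and 7.03 FPKM against 0.797, 3.06, 1.24, 2.18 and 1.28 FPKM. H2-DMb1, a subunit of the peptide editor of class II, fell from 153 ± 25.8 to 14.5 ± 3.95 FPKM, and the class II chain H2-Aa from 1625 ± 239 to 201 ± 53.7 FPKM. In all, 7 of 13 class II genes fell and 0 rose. On the class I arm all 21 genes fell, with a smaller median of -1.13. Nlrc5, the class I transactivator, fell from 29.1 ± 9.24 to 3.30 ± 1.40 FPKM, the immunoproteasome subunit Psmb9 from 148 ± 39.3 to 24.1 ± 5.08 FPKM and the light chain B2m from 1836 ± 381 to 439 ± 54.9 FPKM. The subunits of the constitutive proteasome were close to level, 2 of 14 lower with a median of -0.18. Within code K002000079 7 class II and 17 class I genes passed.

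Of 27 genes usually assigned to type I interferon 22 fell and 0 rose, with a median of -0.92; many of them also respond to interferon-γ. Oas3 fell from 13.3 ± 6.22 to 3.06 ± 1.28 FPKM, while Isg15 fell from 66.3 ± 27.1 to 30.8 ± 7.73 FPKM with a Nemofl/fl mean of 6.47 FPKM. The count of 22 was 14 with the library code as a covariate, 9 within code K002000079 and 14 with the smooth muscle level as a covariate, and Isg15 lost its call in each (adjusted p 0.11, 0.17 and 0.13). Of the 27 genes, 4 were still higher than in Nemofl/fl mice. Over all genes, 71 differed between Il12b-labelled and Nemofl/fl mice in either direction, 0.369% of those tested (2708 at an unadjusted p under 0.05), a comparison in which the library code differs wholly with genotype. For comparison, 11.9% of genes were called higher and 20.3% lower in NEMOIEC-KO than in Nemofl/fl mice. These comparisons share their samples, so the counts are set side by side and not as evidence of one another.

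**Figure D3:**
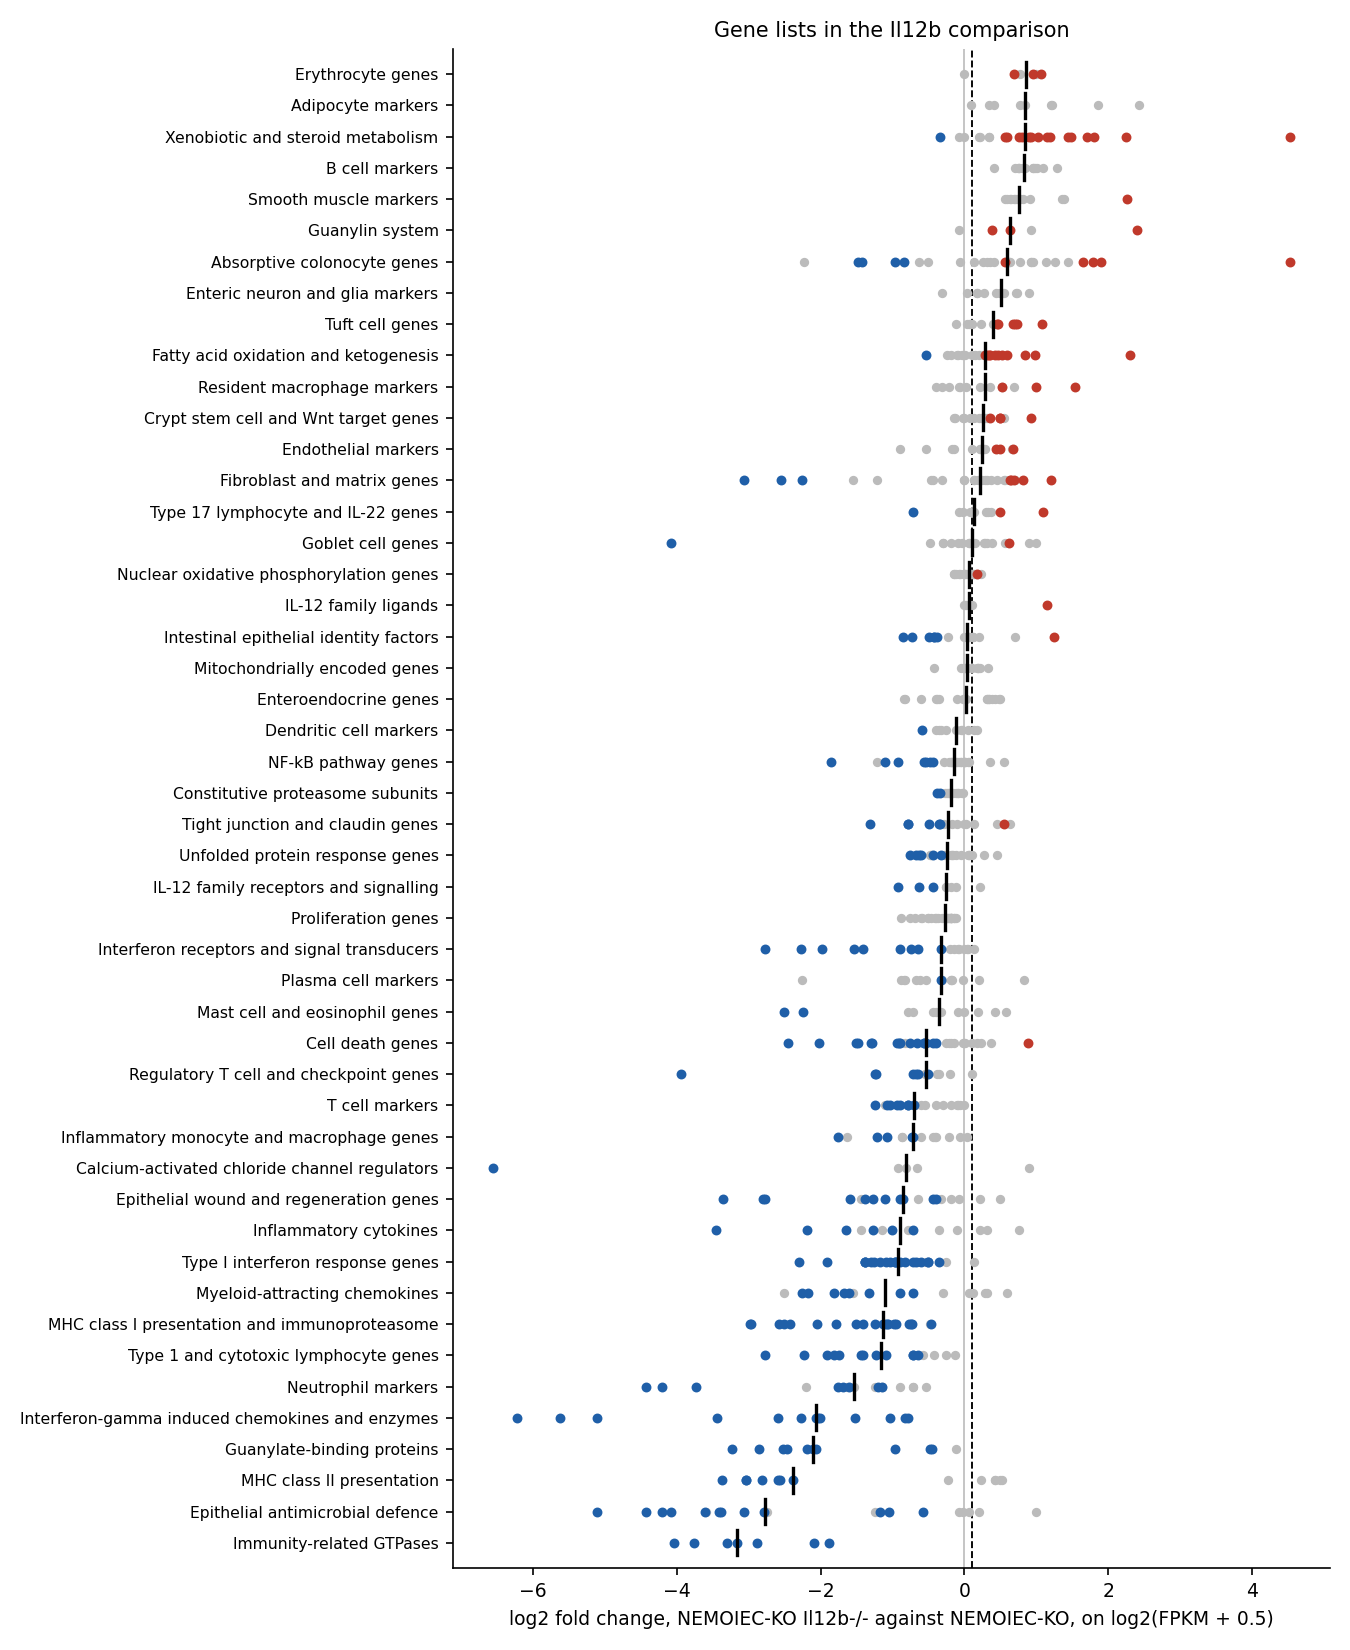
Log2 fold changes of Il12b-labelled against NEMOIEC-KO mice for the members of 48 gene lists, each point 1 gene, coloured where called higher or lower, with a bar at the list median and a dashed line at the median of all genes, 0.11. Interferon lists lie to the left of the line, and xenobiotic metabolism, with 15 of 22 members higher, lies to the right.

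Epithelial defence was lowered too. Of 20 antimicrobial genes of the epithelium 12 fell and 0 rose (median -2.77). Duox2, the oxidase that releases hydrogen peroxide into the lumen, was 59.9, 67.8, 70.4, 56.8 and 60.2 FPKM in NEMOIEC-KO and 8.02, 11.5, 9.58, 7.17 and 7.52 FPKM in Il12b-labelled mice. It varied little within either group, and less among NEMOIEC-KO mice than Ido1 or Cxcl9 did. Duox2 fell by 2.79 (SE 0.33, limma adjusted p 8.4e-06), and its maturation factor Duoxa2 fell from 35.8 ± 9.31 to 3.09 ± 1.45 FPKM. Slpi, a secreted protease inhibitor, was 436, 612, 690, 368 and 688 FPKM against 13.2, 310, 31.9, 51.7 and 23.6 FPKM. Labelled replicate 2 alone came near the NEMOIEC-KO range (fall 3.61, adjusted p 0.0016; 0.066 within code K002000079). The antimicrobial lectins Reg3b and Reg3g did not pass and varied widely among NEMOIEC-KO mice (91.6 ± 186 and 23.2 ± 41.5 FPKM, against 0.824 and 0.942 FPKM). Clca4b, a calcium-activated chloride channel regulator, had the steepest fall of the named genes: 593, 428, 720, 401 and 416 FPKM against 1.12, 50, 4.78, 3.44 and 1.94 FPKM (-6.56, SE 0.99, adjusted p 0.00013). Genes of wound repair followed, 11 of 19 lower, with Ly6a, a marker of regenerating colon epithelium, falling from 2577 ± 851 to 410 ± 267 FPKM and the cornified envelope gene Sprr1a from 38.4 ± 16.0 to 4.89 ± 6.71 FPKM. Within code K002000079, 3 antimicrobial and 2 wound genes passed.

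Cell death genes fell in 16 of 29 cases and rose in 1 (Gsdmc3). Zbp1, a nucleic acid sensor that can start necroptosis, fell from 188 ± 63.9 to 32.9 ± 8.64 FPKM (-2.46, SE 0.26, limma adjusted p 2.8e-06). The necroptosis kinase Ripk3 fell from 61.7 ± 24.8 to 16.7 ± 13.2 FPKM and its substrate Mlkl from 25.4 ± 7.45 to 9.95 ± 2.28 FPKM. Casp8, the caspase that restrains necroptosis, fell from 66.1 ± 9.36 to 34.1 ± 3.88 FPKM, and Gsdmd, the pore former of pyroptosis, from 250 ± 37.2 to 132 ± 7.91 FPKM. Ripk1 did not pass (15.6 ± 1.49 and 13.4 ± 1.06 FPKM). Within code K002000079 7 of the 29 fell. Of 26 NF-κB pathway genes, the pathway that NEMO serves, 7 fell and 0 rose, led by the atypical IκB protein Nfkbiz (26.7 ± 2.86 to 12.2 ± 2.34 FPKM) and by Tnip3. That count was 4 with the library code as a covariate, 2 within code K002000079, 4 with the smooth muscle level as a covariate and 11 with median-of-ratios scaling.

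Myeloid cells showed a mixed picture. Of 19 neutrophil genes 8 fell, with a wide spread. S100a8, a calprotectin subunit, was 4.14, 64.0, 196, 12.0 and 15.3 FPKM in NEMOIEC-KO and 0.226, 11.8, 0.722, 0.285 and 0.126 FPKM in Il12b-labelled mice. The groups overlapped, because labelled replicate 2 exceeded NEMOIEC-KO replicate 1, and the fall of 4.21 had an SE of 1.35 (limma adjusted p 0.031). S100a8 lost its call with the library code (0.19) or smooth muscle level (0.23) as a covariate and within code K002000079 (0.25). It also did without single mice, such as NEMOIEC-KO replicate 3 (0.097). Over the whole neutrophil list the level ran from 0.93 to 4.07 in NEMOIEC-KO mice and from 0.22 to 1.65 in labelled mice, where replicate 2 was the highest and the other 4 stayed at or below 0.60. Ly6g, the antigen of the neutrophil antibody, was at 342 FPKM even in Nemofl/fl colon and fell from 567 ± 131 to 255 ± 44.0 FPKM. Among 14 cytokines 6 fell, including Il1b (36.0 ± 41.5 to 1.23 ± 0.894 FPKM), Tnf (5.16 ± 3.88 to 0.545 ± 0.303 FPKM) and Il6. Of 16 chemokines for myeloid cells 8 fell, including Ccl7 and Cxcl1. With the library code as a covariate 2 genes passed in each of these 3 lists, and Il1b (limma adjusted p 0.092), Il6 (0.19) and Cxcl1 (0.11) lost their calls. Leaving out single mice moved the neutrophil count from 2 (without NEMOIEC-KO replicate 3 or Il12b-labelled replicate 1, 4 or 5) to 13 (without NEMOIEC-KO replicate 1), and the chemokine count fell to 3 without NEMOIEC-KO replicate 2 or 3 or Il12b-labelled replicate 1 or 5. Of 15 inflammatory monocyte and macrophage genes 5 fell and 0 rose, with a median of -0.72, beside 5.94% of all genes called lower. That count was 2 with the library code or smooth muscle level as a covariate and 1 within code K002000079. Of 14 resident macrophage markers 3 rose and 0 fell, a share not far from the 14.0% of all genes called higher. They were the folate receptor Folr2 (1.33 ± 0.699 to 4.58 ± 0.939 FPKM, adjusted p 0.0013), the haemoglobin scavenger receptor Cd163 and Timd4. With the library code as a covariate 1 rose, and within code K002000079 0 did. B cell markers had a median of 0.84 with 0 of 14 called by limma, and plasma cell genes had 1 of 15 lower (Xbp1). Type 17 genes did not fall as a list. Of 11 tested, 2 rose, among them Il17f (0.218 to 0.532 FPKM), and Csf2 fell. The risers are a share near the 14.0% of all genes called higher. Both counts were 0 with the library code as a covariate and within code K002000079, where Il17f lost its call (limma adjusted p 0.13 and 0.11). It also did with the smooth muscle level as a covariate (0.11).

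**Figure D4:**
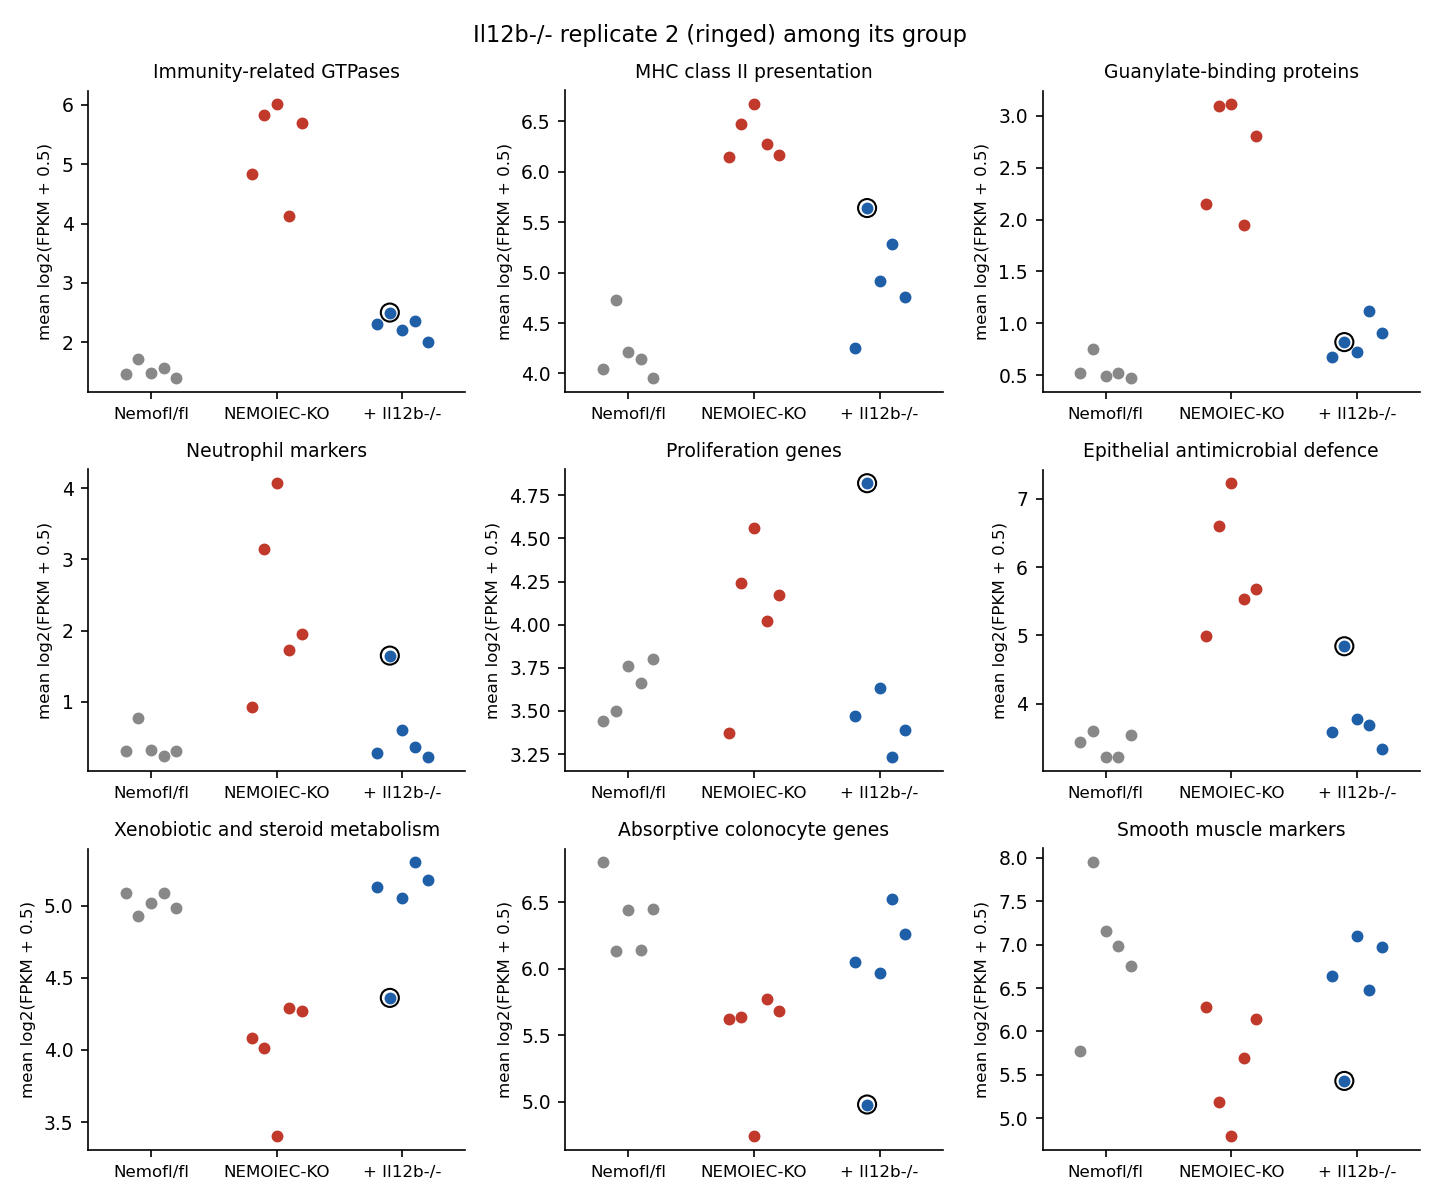
Levels of 9 gene lists by mouse in Nemofl/fl, NEMOIEC-KO and Il12b-labelled groups, as mean log2(FPKM + 0.5), with replicate 2 of the Il12b-labelled group ringed. That mouse is the highest of its group for neutrophil genes (1.65) and proliferation genes (4.82) and the lowest for xenobiotic metabolism (4.36).

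Metabolic genes of the absorptive epithelium rose. Of 22 genes of xenobiotic and steroid metabolism 15 rose and 1 fell, with a median of 0.85 beside 14.0% of all genes called higher. Cyp2c55, a colonic cytochrome P450, was 2.12, 0.659, 0.142, 1.92 and 3.09 FPKM in NEMOIEC-KO and 47.6, 5.08, 45.6, 102 and 88.1 FPKM in Il12b-labelled mice. Replicate 2 was again the exception within its group, lying just above the NEMOIEC-KO range. Cyp2c55 rose by 4.53 (SE 0.89, limma adjusted p 0.0013), to a mean of 57.6 ± 38.3 FPKM beside 55.5 ± 11.3 FPKM in Nemofl/fl mice, and kept the size but not the call within code K002000079 (4.55, adjusted p 0.075). The glutathione transferase Gstm1 rose from 113 ± 41.3 to 355 ± 58.0 FPKM and Aldh1a1, a retinaldehyde dehydrogenase, from 7.39 ± 2.93 to 28.1 ± 11.6 FPKM. Hsd3b3, a steroid dehydrogenase with close paralogs whose reads may be shared, was 8.17, 11.6, 1.95, 12.7 and 10.3 FPKM against 66.3, 24.9, 32.5, 46.1 and 34.3 FPKM. Of the 22 genes, 16 rose without replicate 2, 11 with median-of-ratios scaling, 7 with the library code as a covariate and 2 within code K002000079.

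Ketone and fatty acid metabolism rose in smaller steps. Acaa2, a thiolase of mitochondrial β-oxidation, was 40, 39.7, 32.9, 48.9 and 41.5 FPKM in NEMOIEC-KO and 84.1, 71.3, 77.2, 88 and 79.7 FPKM in Il12b-labelled mice. All labelled mice were above all NEMOIEC-KO mice, with little spread in either group, and the rise was 0.98 (SE 0.13, limma adjusted p 3e-05). The labelled mean of 80.1 ± 6.43 FPKM lay beside 82.1 ± 4.14 FPKM in Nemofl/fl mice. Also up was the ketone enzyme Bdh1, from 45.2 ± 3.70 to 65.3 ± 7.19 FPKM. Of the 25 genes, 11 rose and 1 fell (Acadl), with a median of 0.29; 5 rose under median-of-ratios scaling and 5 within code K002000079. Guca2a, which encodes the peptide guanylin that drives chloride secretion, was 315, 435, 115, 243 and 231 FPKM against 2110, 1462, 1193, 1254 and 805 FPKM. It rose by 2.40 (SE 0.46, adjusted p 0.001) to above its Nemofl/fl mean of 729 FPKM, with its receptor Gucy2c (41.7 to 54.6 FPKM) and the chloride channel Cftr (6.65 to 10.4 FPKM) also up. Guca2a lost its call with the library code as a covariate (1.81, adjusted p 0.065).

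Other epithelial lists moved in part. Among 28 absorptive colonocyte genes 5 rose, including the carbonic anhydrase Car1 (821 ± 450 to 2727 ± 1067 FPKM), and 4 fell, including Krt20 (809 ± 45.4 to 419 ± 71.6 FPKM) and Ceacam20. Over all genes 14.0% were called higher, a share near that of the 5 risers, and 5.94% lower. Without labelled replicate 2 the count of risers was 13, and within code K002000079 it was 0. Car1 lost its call with the library code (limma adjusted p 0.056) or smooth muscle level (0.1) as a covariate. It also did within code K002000079 (0.12) and without NEMOIEC-KO replicate 2 (0.052). Tuft cell genes rose in 6 of 13 cases, among them Pou2f3, the transcription factor that specifies tuft cells (0.0729 to 0.302 FPKM), and 0 did with the smooth muscle level as a covariate. Of 16 stem cell and Wnt target genes 4 rose, including Ascl2 (1.54 ± 0.337 to 3.51 ± 1.20 FPKM), beside 14.0% of all genes called higher. That count was 1 under median-of-ratios scaling and 0 within code K002000079, and Lgr5 did not pass (0.841 and 1.17 FPKM). Of 24 proliferation genes 0 passed by limma, with a median of -0.28, and 10 fell without replicate 2, in which they were highest. Goblet cell genes gave 1 of 18 in each direction and enteroendocrine genes 0 of 17. Tight junction genes included 6 that fell of 16, among them Cldn4 (65.9 ± 35.5 to 24.1 ± 2.68 FPKM), and 1 did within code K002000079. Of 23 unfolded protein response genes 7 fell, including the chaperone Hspa5 (248 ± 47.4 to 148 ± 37.3 FPKM), and 0 did with the library code as a covariate. In the stroma, 5 of 26 fibroblast and matrix genes rose, such as Col14a1 and Dcn, and 3 matrix metalloproteinases fell, such as Mmp7 (12.3 ± 16.7 to 0.357 ± 0.474 FPKM). The 5 risers are a share near the 14.0% of all genes, and both counts were 0 with the library code as a covariate and within code K002000079, and 1 and 0 with the smooth muscle level as a covariate. Of 6 erythrocyte genes 3 rose, among them Hba-a1 and Hba-a2, and of 14 endothelial genes 3 rose (Tek, Tie1 and Emcn). The endothelial share is not far from the 14.0% of all genes called higher. With the smooth muscle level as a covariate 1 erythrocyte and 0 endothelial genes rose. Leaving out single mice brought the 2 counts as low as 1 and 0.

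**Figure D5:**
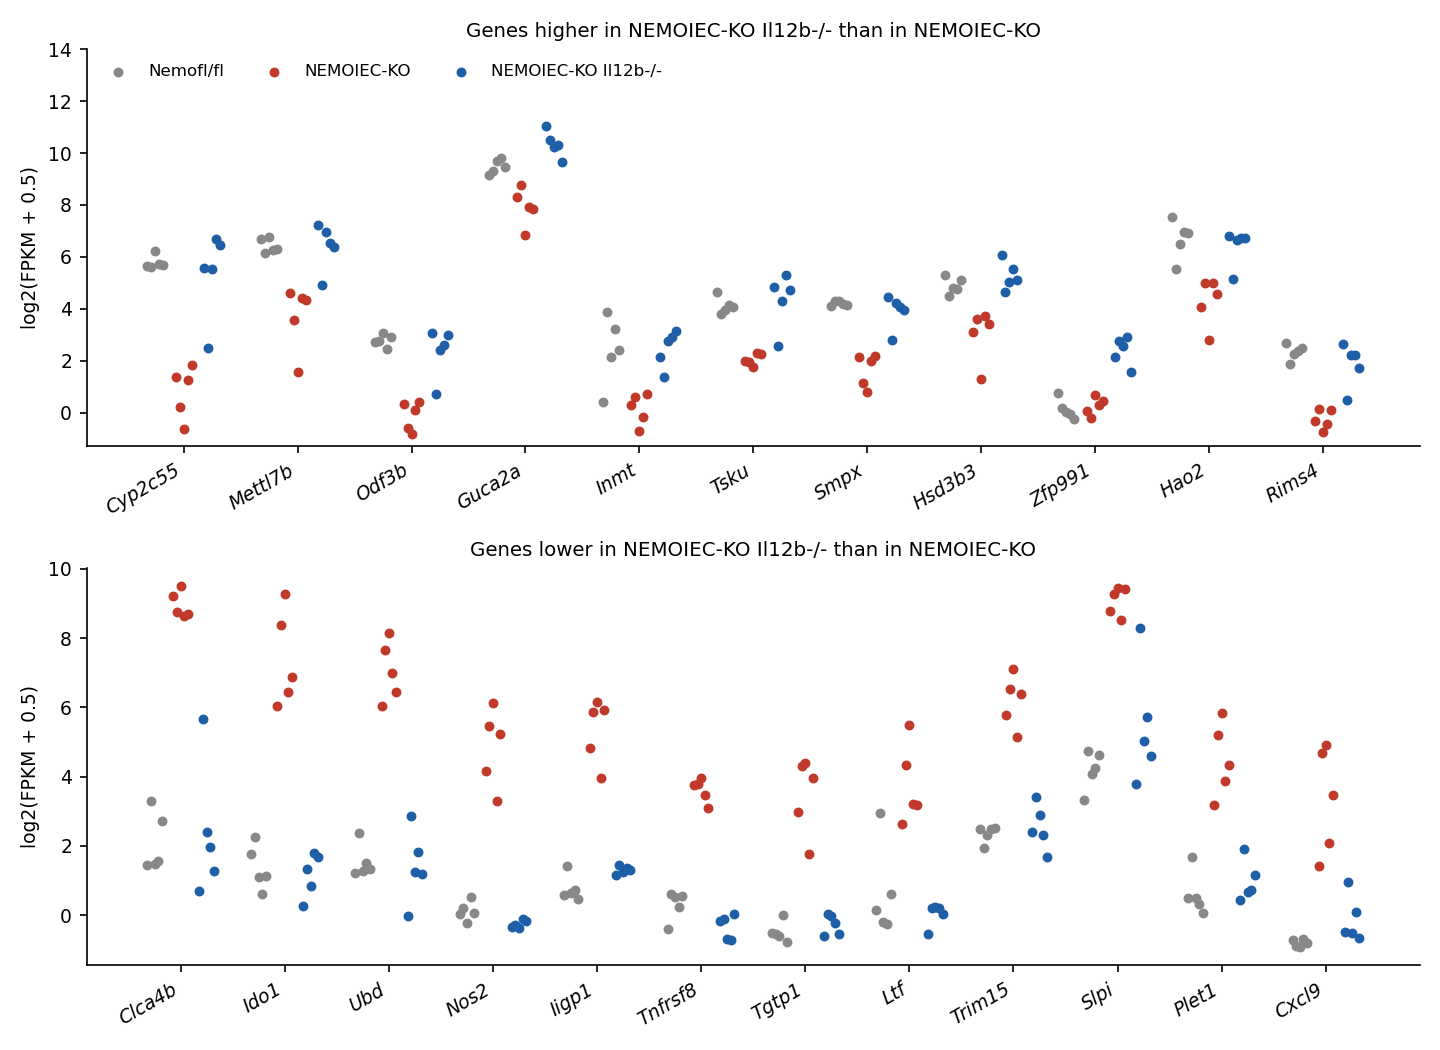
Expression as log2(FPKM + 0.5) of 11 of the 12 genes with the largest rise and the 12 with the largest fall, by mouse, in Nemofl/fl, NEMOIEC-KO and Il12b-labelled groups. For each gene the Il12b-labelled and NEMOIEC-KO mice do not overlap, by the rule that chose them, and Slpi in labelled replicate 2 (310 FPKM) lies close to the lowest NEMOIEC-KO mouse (368 FPKM).

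The 12 genes with the largest rise and the 12 with the largest fall were chosen partly because the groups did not overlap, which held for 11.7% of all genes in the upward and 4.10% in the downward direction. Those not yet described among the risers are Mettl7b (15.8 ± 8.75 to 95.6 ± 45.3 FPKM), Odf3b (0.482 to 5.36 FPKM), the methyltransferase Inmt (0.684 to 5.54 FPKM), the Wnt inhibitor Tsku (3.69 ± 0.643 to 23.4 ± 12.3 FPKM), Hao2, a peroxisomal hydroxyacid oxidase (21.8 ± 10.7 to 91.3 ± 31.8 FPKM), Rims4 (0.360 to 3.56 FPKM) and Zfp991. Among those that fell were Ltf, the iron-binding protein lactoferrin (17.5 ± 16.2 to 0.539 ± 0.205 FPKM), Trim15 (80.1 ± 39.1 to 5.81 ± 2.88 FPKM) and Plet1 (27.2 ± 19.7 to 1.62 ± 0.961 FPKM). Of these 24 genes, 12 lost their call in at least 1 alternative: all 12 within code K002000079, 6 with the code as a covariate and 2 with the smooth muscle level as a covariate.

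Set against mice labelled Il23a-/- (p19 of IL-23), the Il12b-labelled mice had 613 genes higher (3.18%) and 372 lower (1.93%). That balance turned with the processing: 62.2% of the genes called were higher, but 37.5% of 843 were with median-of-ratios scaling, 45.1% of 747 with quantile normalization and 33.5% of 209 with the smooth muscle level as a covariate. In this direct test 19 of 21 class I genes, all 7 immunity-related GTPases, 8 of 11 guanylate-binding proteins, 8 of 13 interferon-γ induced genes and 7 class II genes were lower, and 0 of these lists' genes were higher. Il23a-labelled mice had mean FPKM close to NEMOIEC-KO mice for Ido1 (205 beside 245), Gzma (6.41 beside 5.92) and Tgtp1 (15.5 beside 13.0). Such closeness did not hold for every list. In mean log2(FPKM + 0.5), chloride channel regulators were at 4.07 to 4.54 in Il23a-labelled and 5.12 to 5.69 in NEMOIEC-KO mice. Neutrophil markers divided the Il23a-labelled mice, at 3.81, 0.5, 2.16, 2.86 and 0.58 in replicates 1 to 5. Ido1 differed by -5.62, Ubd by -4.68 and Irf1 by -1.14 (adjusted p 0.00011). The difference for Ifng, 0.0414 against a mean of 1.13 FPKM, did not pass (adjusted p 0.16). Above the Il23a-labelled level were Retnla, a marker of alternatively activated macrophages (19.2 ± 10.5 against 0.949 ± 0.605 FPKM, log2 difference 3.58, adjusted p 0.0012), and Inmt (2.02, adjusted p 0.028). Nos2 did not differ past the threshold (-2.45, adjusted p 0.051), nor did Duox2 (8.76 against 18.3 FPKM, adjusted p 0.066). The number of genes in this comparison depended strongly on single libraries, 325 without Il23a-labelled replicate 4 and 2710 without Il12b-labelled replicate 2. By sex-linked RNA, Il23a-labelled replicates 1, 3, 4 and 5 were female, and replicate 5 carries another library code, K002000080. With sex as a covariate 568 genes passed, and 1848 with the library code.

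Set against mice labelled Il12a-/- (p35 of IL-12), 79 genes differed in either direction, 0.410% of those tested (1250 at an unadjusted p under 0.05). No gene of the interferon, antigen presentation or cytotoxic lists was called by limma in this comparison. A missed threshold does not show that the groups were alike: means were lower in Il12b-labelled mice for Irf1 (86.1 against 122 FPKM), Ido1 (1.94 against 8.72 FPKM), Ubd (2.79 against 9.98 FPKM), Cd74 (439 against 843 FPKM) and Nos2 (0.344 against 5.19 FPKM). Duox2, at 8.76 against 31.5 FPKM, came nearest to the threshold among these (adjusted p 0.057). The neutrophil list had 1 gene lower (Ly6g). Hsd3b3 was 40.8 ± 16.2 FPKM against 1.52 ± 0.822 FPKM (log2 difference 4.44, adjusted p 2.5e-05), the largest difference in the upward direction among the genes named here.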

How the data were processed

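RNA-seq of distal colon was analysed from 25 mice, 5 per genotype, grouped by their titles. The authors deposited 1 table of FPKM values (fragments scaled to transcript length and library size) per gene, and the submitters' processing notes name TopHat2 2.0.10, Cufflinks 2.1.1, DESeq2 1.10.1 and build GRCm38. Library preparation was stranded, per the labels' protocols. FPKM hides read depth, so no counting interval is given, and the number of mice limits the precision.

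From these values log2(FPKM + 0.5) was computed for genes that reached 0.2 FPKM in 5 or more libraries, and 1 model over all 25 samples was fitted with limma 3.58.1 (lmFit, eBayes with trend) in R 4.3.3. Tests were two-sided with Benjamini-Hochberg adjustment over all 19266 genes and a threshold of 0.05. The pseudocount makes fold changes of low genes smaller than they are. Gene lists are described by counts and medians, without a list test.

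Genes were named by rule: the targeted genes; the 12 largest rises and 12 largest falls among called genes whose groups do not overlap and whose higher group averages at least 1 FPKM, predicted genes left out; in each list up to 3 called genes in each direction, or the 2 with the smallest p; and the 6 and 6 largest differences from each other double mutant. Reg3b, Reg3g, Ripk1, Gbp2b, Lgr5 and some further list members were named as defining members or after their values were seen. Members and lists were chosen with earlier results of these data known. Of the list symbols, 8 had no match and were not analysed here. A few genes that count in these totals are not reported here by name.

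Alternatives covered the pseudocount, the filter, median-of-ratios and quantile scaling, a fit of the 2 groups alone, a replicate block, library code, sex and smooth muscle level as covariates, a single library code, and leaving out each mouse.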

Additional observations from a re-analysis of the deposited data

Results flagged for a closer look

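Among 96 list levels screened in the NEMOIEC-KO and Il12b-labelled groups, 7 had a mouse far from the other 4 (gap over range above Dixon's 95% value of 0.71), and 6 of these were Il12b-labelled replicate 2; chance gives about 1 in 20 groups. In mean log2(FPKM + 0.5), that mouse was at 1.65 for neutrophil markers (others 0.22 to 0.60), 3.19 for inflammatory monocyte and macrophage genes (2.25 to 2.51), 1.42 for mast cell and eosinophil genes (0.42 to 0.56) and 4.82 for proliferation genes (3.23 to 3.63). It was low for xenobiotic and steroid metabolism at 4.36 (5.05 to 5.30) and for mitochondrially encoded genes at 6.77 (7.59 to 7.85). The same mouse stood out for single genes, screened on log2(FPKM + 0.5) and printed here in FPKM: Cyp2c55 at 5.08 (45.6 to 102), Odf3b at 1.16 (4.76 to 7.92), Hao2 at 34.8 (101 to 110) and Il12a at 1.08 (0.187 to 0.327). NEMOIEC-KO replicate 3 was low for absorptive colonocyte genes at 4.74 (5.62 to 5.77) and for Hsd3b3 at 1.95 FPKM (8.17 to 12.7). Il12b-labelled replicate 1 had Ltf at 0.186 FPKM (0.531 to 0.666). Of 56 gene levels, all screened on log2(FPKM + 0.5), 6 were past the value.

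Direct tests between double mutants gave 79 genes against Il12a-labelled mice. In log2 difference, the largest upward among genes named by the rule were Hsd3b3 (4.44), Hsd3b2 (2.56), Apoc2 (2.20), Zfp991 (1.81), Lrmda (1.55) and Tescl (1.53). The largest downward were Rps3a3 (-6.10), Hist1h2al (-5.83), Rps3a2 (-2.83), Sprr2a3 (-1.40), Hsd3b1 (-1.37) and Miip (-1.20). Rps3a3 was at 514 ± 65.4 FPKM in Il12a-labelled mice and 7.01 ± 1.19 FPKM in Il12b-labelled mice, and like the Hsd3b and histone genes it has close copies whose reads are uncertain. Against Il23a-labelled mice 985 genes differed, upward most for Retnla (3.58), Snora34 (3.43), Zfp991 (2.37), Inmt (2.02) and Tescl (1.74). The downward ones were Ido1 (-5.62), Ubd (-4.68), Iigp1 (-3.69), Tgtp1 (-3.63), Tnfrsf8 (-3.46) and Cxcl9 (-3.28).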

How the results depend on the processing

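The 3833 genes called against NEMOIEC-KO mice were 3803 to 3905 with a pseudocount of 1 or 0.1, 3254 without the filter, 3630 at 1 FPKM, 2871 with median-of-ratios and 3056 with quantile scaling (54.4% higher), 4081 with the 2 groups alone and 4129 with sex as a covariate. They were 1420 with the library code as a covariate, 719 within code K002000079 and 1899 with the smooth muscle level as a covariate; the cause was not tested, though the within-code fit has fewer samples. Leaving out 1 mouse gave 2656 (without Il12b-labelled replicate 1) to 4460 (without its replicate 2). Replicate numbers carry no stated pairing: a replicate block gave 3806 genes, 3575 of them shared, same-numbered samples correlated at -0.125 to 0.104 (others -0.347 to 0.442), and 0 of 5 numbers correlated best with themselves. Against Il12a-labelled mice the 79 genes became 49 with the 2 groups alone and 123 with the smooth muscle covariate. Against Il23a-labelled mice the 985 became 561 without the filter, 397 with the 2 groups alone, 1848 with the library code, 568 with sex, 209 with the smooth muscle level, and 325 to 2710 leaving out 1 mouse; the share higher, 62.2%, was 37.5% with median-of-ratios scaling. The code was wholly confounded with genotype against Nemofl/fl mice and partly against NEMOIEC-KO mice, and unknown depth limits what can be said of genes near 0 FPKM.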

Other observations

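Some differences were grouped by chromosome, a pattern noticed after the values were seen. Of the 79 genes that differed between Il12b- and Il12a-labelled mice, 20 lay on chromosome 3 (25.3%, against 5.31% of genes tested), with starts between 86.1 and 104.9 Mb on GRCm38; Il12a itself starts at 68690644 on that chromosome. A further 16 lay on chromosome 7 (20.3%, against 8.09%), with quartiles at 19.0 and 24.1 Mb, and 8 on chromosome 4 (10.1%, against 6.10%), between 142.0 and 155.4 Mb. Of the 71 genes that differed from Nemofl/fl mice, 15 lay on chromosome 7 (21.1%), 10 on chromosome 4 (14.1%, 140.9 to 156.2 Mb) and 10 on chromosome 11 (14.1%, against 8.04%), spread from 16.6 to 120.6 Mb. Il12b lies on chromosome 11 at 44400063 to 44414033, and 4 of the 79 genes (5.06%) lay on that chromosome. Both comparisons contain the same Il12b-labelled mice.

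Values of single genes show the chromosome 4 and 7 pattern by mouse. Zfp991, a zinc finger gene on chromosome 4, was 3.97, 6.28, 5.47, 7.01 and 2.43 FPKM in Il12b-labelled mice, and group means elsewhere were 0.635 (Nemofl/fl), 0.722 (NEMOIEC-KO), 1.09 (Il12a-labelled) and 0.537 FPKM (Il23a-labelled). Tescl on chromosome 7 was 2.11, 1.04, 1.01, 1.13 and 1.32 FPKM, with other group means of 0.164, 0.0368, 0.121 and 0.0357 FPKM. Miip on chromosome 4 was lower in Il12b-labelled mice, at 14.7 ± 5.07 FPKM, than the 26.3 to 32.8 FPKM of the other group means. Within 5 Mb of Il12b, 63 genes were tested against NEMOIEC-KO mice, of which 5 were higher and 13 lower, 28.6% beside 19.9% of all genes. That window holds Tgtp1, whose promoter lies at chr11:48992197-48992496. The lower genes there thus include at least this interferon-induced gene, already described above. Whether strain-derived sequence around any locus plays a part was not tested.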
